A study of Homo sapiens with 6 samples.

Results

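Syndecans, glypicans and the secreted cores versican and biglycan are proteoglycans, proteins that carry long sulfated sugar chains. The genes described here were SDC1, SDC2, SDC3, SDC4, GPC1, GPC3, GPC4, GPC6, VCAN and BGN, a list of 10 set by name. All 10 had at least 1 probe set annotated with that symbol alone, 24 probe sets in all, of 19775 genes and 41091 such probe sets on the array. The cells were CaSki, an established line from a human cervical squamous carcinoma that carries papillomavirus DNA. They were either given recombinant TGF-β1 (2 ng/mL), with 3 arrays, or kept in medium with no TGF-β1 added, with 3 arrays. Both groups came from cultures grown in RPMI1640 with fetal bovine serum. The study asked how expression changed with the cytokine and whether TGF-β pathway genes were among the changes. The sources used here give neither the length of treatment nor the number of separate cultures. All p-values therefore reflect the spread between arrays of 1 line, which may be technical.

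Heparan sulfate and chondroitin sulfate chains bind growth factors, chemokines and matrix proteins and hold them near the cell surface. Syndecans span the membrane and end in a short cytoplasmic tail that meets PDZ proteins and the actin cytoskeleton, while glypicans hang on the outer leaflet by a lipid anchor. Versican, a large chondroitin sulfate proteoglycan that binds hyaluronan, and biglycan, a small leucine-rich one that can bind TGF-β, are laid down in the matrix and are typical products of fibroblasts. In squamous epithelia, syndecan-1 is the abundant cell-surface heparan sulfate proteoglycan.

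Values are log2 expression estimates made with RMA, a method that subtracts background, brings the arrays to 1 distribution and gives each probe set a single number per array. They ran from 1.57 to 14.54 over the 6 arrays, with array medians between 4.15 and 4.18. Arrays have no read depth and no detection call was at hand, so probe sets below the array median may hold little more than background, and RMA is known to compress their differences. The GAPDH and ACTB control probe sets gave a 3′ over 5′ signal, a sign of RNA quality, of 1.15 and 1.19 (log2) on the arrays numbered 1 and of 0.690 to 0.863 on the other 4. It averaged 0.859 ± 0.256 in treated and 0.939 ± 0.218 in untreated samples (SD, n = 3 each), and an exact two-sided permutation test gave p = 0.5, where 0.1 is the lowest attainable. The 8 markers measured for the labelled cell type, of which CDKN2A is not specific to epithelium, were KRT5, KRT14, KRT18, KRT19, EPCAM, CDH1, DSG3 and CDKN2A. All 8 lay above the array median, DSG3 at a mean of 4.80 and the others at 7.63 or more. Of these, KRT14, a basal keratin, was higher by 0.77 (log2, limma adjusted p = 0.0027) and EPCAM, an epithelial adhesion molecule, lower by 0.70 (adjusted p = 9.5e-04) with treatment, their part in the results on the 10 genes not being tested, and the other 6 did not pass. Of 10 fibroblast and pericyte markers, 6 lay below the array median, among them LUM and PDGFRA, and 0 passed the test. DCN, PDGFRB, THY1 and FBLN1 lay above it, at means of 4.36 to 5.25. The summed signal of these fibroblast and pericyte markers on the linear scale was 179.3 to 198.6 in treated and 176.9 to 198.7 in untreated samples. Of 7 endothelial markers 4 lay below the array median and CDH5 was the 1 to pass, 1.33-fold lower at a level of 2.91 in treated against 3.32 in untreated samples. Of 5 immune markers 3 lay below it and 0 passed. The endothelial PECAM1, VWF and TEK and the immune CD3E and CSF1R lay above it, at means of 4.57 to 5.67. In level, DSG3 was not apart from these.

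Of the 10 genes, SDC1 and SDC3 rose with TGF-β1 and the other 8 did not pass the test. Across all genes 8.5% passed at an adjusted p below 0.05, 4.03% as higher and 4.47% as lower with treatment (limma, Benjamini-Hochberg over 19775 genes). The median difference of the 10 genes was 0.03 on the log2 scale, and that of all genes was -0.0027. Treated and untreated values did not overlap for the same 2 genes, where 29.2% of all genes had such a gap. The syndecans held both calls (2 of 4), and the glypicans (0 of 4) and the secreted cores (0 of 2) held none. At an unadjusted p below 0.05 the glypicans and the secreted cores also had 0, where 4584 of all 19775 genes had such a p. GPC4 came closest, at an unadjusted limma p of 0.055. In a culture measured in bulk, a higher level per cell and a larger share of expressing cells cannot be told apart.

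**Figure D1:**
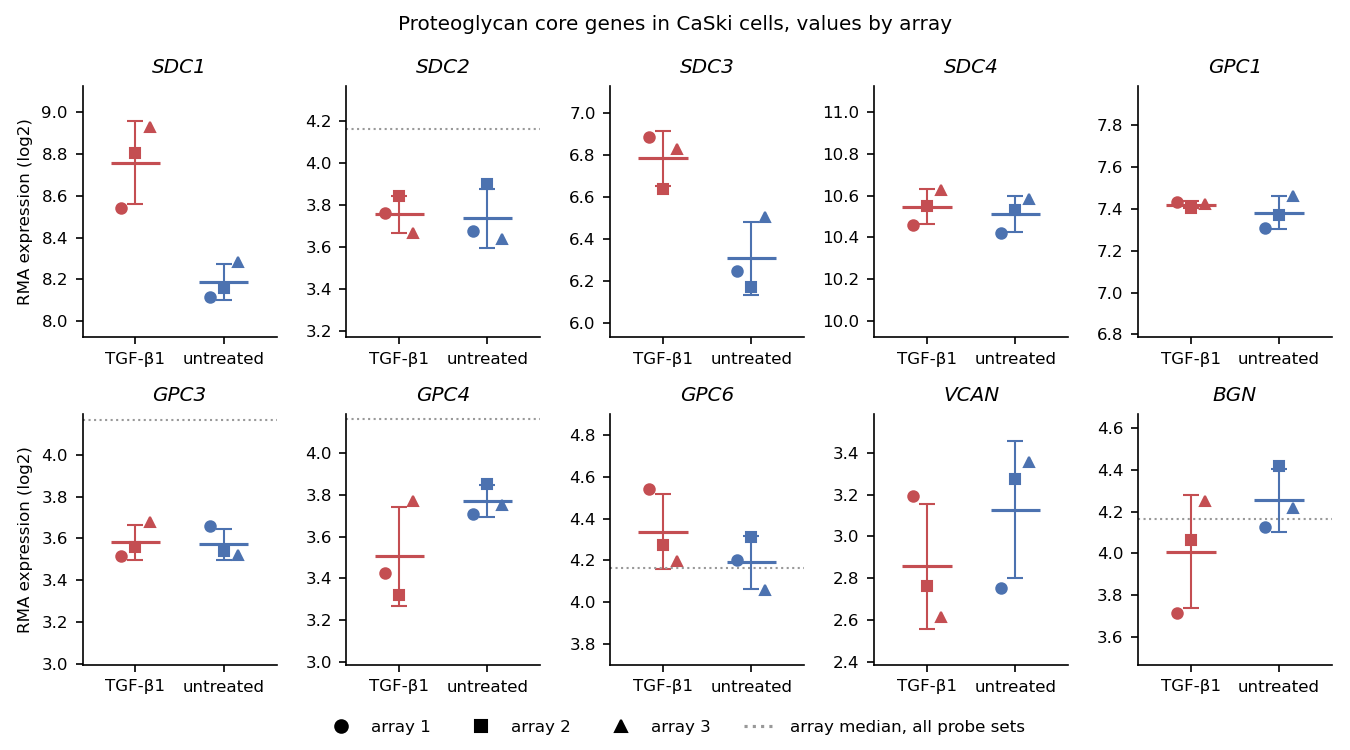
RMA expression (log2, vertical axis) of each gene's brightest probe set in TGF-β1-treated and untreated CaSki cells. Points are arrays, with the shape giving the array number, bars are means and whiskers are SD (n = 3 each), every panel spans the same range of log2 units, and the dotted line is the mean of the array medians where it falls in that range. SDC1 and SDC3 are the 2 panels in which all treated points lie above all untreated points.

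SDC1 encodes syndecan-1, a receptor-like proteoglycan of epithelial cells that carries heparan sulfate and chondroitin sulfate. Its signal was 8.54, 8.80 and 8.93 (log2) on treated arrays 1, 2 and 3, and 8.12, 8.16 and 8.29 on untreated arrays 1, 2 and 3. Every treated value lay above every untreated one, and the closest pair was treated array 1 and untreated array 3. The mean was 8.76 ± 0.198 in treated and 8.19 ± 0.0872 in untreated cells (SD, n = 3 each), a difference of 0.57 ± 0.11 (SE) or 1.49-fold (95% interval 1.25-fold to 1.77-fold, limma adjusted p = 0.0174). A second probe set, at a mean level of 7.74, differed in the same direction by 0.33, with a 95% interval from 0.13 to 0.53, but did not pass among all probe sets (adjusted p = 0.0703). SDC1 no longer passed without treated array 2 (limma adjusted p = 0.0625), treated array 3 (0.0519), untreated array 1 (0.0659) or untreated array 2 (0.0666), in fits with fewer samples, and the difference ran from 0.49 to 0.68 over the 6 removals.

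SDC3 encodes syndecan-3, best known from neurons and Schwann cells. It had 6.89, 6.64 and 6.83 (log2) on treated arrays 1, 2 and 3, against 6.24, 6.17 and 6.50 on untreated arrays 1, 2 and 3. The gap between the groups was narrow, since treated array 2 lay close to untreated array 3. The mean was 6.79 ± 0.131 in treated and 6.31 ± 0.173 in untreated cells (SD, n = 3 each), a difference of 0.48 ± 0.11 (SE) or 1.39-fold (95% interval 1.17-fold to 1.66-fold, limma adjusted p = 0.0341). The other SDC3 probe set, at a mean level of 4.95, showed no such gap. It had 5.53, 4.66 and 4.73 in treated and 5.08, 4.72 and 4.97 in untreated samples, and differed by 0.05 with a 95% interval from -0.45 to 0.55. With the 2 probe sets averaged, the SDC3 difference was 0.26 and did not pass (adjusted p = 0.34). SDC3 also missed the threshold without treated array 1 (limma adjusted p = 0.0878), treated array 3 (0.0967), untreated array 1 (0.106) or untreated array 2 (0.115), and without both arrays numbered 1 (0.199).

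SDC4 encodes syndecan-4, a widely expressed co-receptor of integrins at focal adhesions. Its single probe set read 10.46, 10.55 and 10.63 (log2) on treated arrays 1, 2 and 3, and 10.42, 10.53 and 10.58 on untreated arrays 1, 2 and 3. The groups overlapped throughout and the difference was 0.03 (95% interval -0.15 to 0.22, limma adjusted p = 0.84). A rise of the size fitted for SDC1 or SDC3 lies outside that interval. SDC2, which encodes the syndecan typical of mesenchymal cells, had 3.76, 3.84 and 3.67 in treated and 3.68, 3.90 and 3.64 in untreated samples. These SDC2 levels lay below the array median and its difference was 0.02 (95% interval -0.19 to 0.23, limma adjusted p = 0.93). Its dimmer probe sets averaged 2.87 and 2.53, with differences of -0.04 and 0.22 that did not pass.

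Within arrays, SDC1 gained 0.54 (log2) on SDC4 with treatment and SDC3 gained 0.44 on SDC4. In both ratios the treated and untreated arrays did not overlap, and each reached the limit of 3 against 3 arrays, p = 0.1 in an exact two-sided permutation test (adjusted p = 0.15 over 3 ratios). SDC1 and SDC3 differed from each other in their change by 0.09 (exact permutation p = 0.7, adjusted p = 0.7). These 3 ratios were chosen after the values had been seen.

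The start regions of the syndecan genes are shown because SDC1 and SDC3 rose while SDC4 did not pass. They are RefSeq windows of GRCh38.p14, each 300 bases from 250 before to 50 after an annotated start, on the minus strand of the genome and printed 5′ to 3′. SDC1 has windows for 2 starts, the upstream one at chr2:20225426-20225725 and the downstream one at chr2:20225081-20225380. SDC3 lies at chr1:30908709-30909008 and SDC4 at chr20:45348375-45348674. Capitals mark matches to CAGAC or GTCTG, the core of the SMAD-binding element on either strand, and to GGGCGG or CCGCCC, the GC box bound by SP factors.
SDC1, upstream start: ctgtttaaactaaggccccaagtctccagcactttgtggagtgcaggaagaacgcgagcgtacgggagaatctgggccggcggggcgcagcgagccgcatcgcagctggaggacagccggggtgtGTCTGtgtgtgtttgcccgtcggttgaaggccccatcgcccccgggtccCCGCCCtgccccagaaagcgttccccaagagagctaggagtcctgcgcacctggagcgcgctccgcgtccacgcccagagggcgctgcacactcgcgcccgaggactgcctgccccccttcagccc
SDC1, downstream start: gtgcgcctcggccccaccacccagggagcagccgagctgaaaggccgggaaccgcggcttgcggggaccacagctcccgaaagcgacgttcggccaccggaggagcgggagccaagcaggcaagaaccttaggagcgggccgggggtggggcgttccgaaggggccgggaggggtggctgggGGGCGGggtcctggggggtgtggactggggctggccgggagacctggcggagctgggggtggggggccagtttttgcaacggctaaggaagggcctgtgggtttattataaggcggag
SDC3: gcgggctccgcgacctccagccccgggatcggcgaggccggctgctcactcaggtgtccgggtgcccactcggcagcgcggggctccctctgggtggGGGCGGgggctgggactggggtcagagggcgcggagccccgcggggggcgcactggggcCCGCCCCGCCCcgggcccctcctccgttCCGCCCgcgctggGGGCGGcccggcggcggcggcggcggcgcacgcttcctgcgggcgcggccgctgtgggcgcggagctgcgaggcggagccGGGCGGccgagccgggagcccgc
SDC4: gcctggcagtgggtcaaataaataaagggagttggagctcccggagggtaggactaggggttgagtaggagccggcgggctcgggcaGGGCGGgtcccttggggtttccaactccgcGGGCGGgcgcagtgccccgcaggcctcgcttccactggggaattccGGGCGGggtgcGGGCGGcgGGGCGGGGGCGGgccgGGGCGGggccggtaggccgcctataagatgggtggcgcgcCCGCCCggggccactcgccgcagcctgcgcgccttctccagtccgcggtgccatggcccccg

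The upstream SDC1 window held 1 SMAD-element match, at position -125 with the first transcribed base at 0, and 1 GC box. The downstream SDC1 window held 1 GC box, the SDC3 window 6 and the SDC4 window 8, with overlapping matches counted apart. Such short words are common: of 35116 windows of this length in the table, 45.3% held a SMAD-element match and 44.95% a GC box. Of the 10 genes 8 had a window, 9 windows in all, and SDC2 and GPC3 did not. The SMAD word was found in 1 of these 9 windows and the GC box in 8, GPC6 being the exception. The AP-1 word TGANTCA, held by 7.71% of all windows, was found in 0 of the 9, and TATAAA or its reverse complement, held by 11.5%, in the GPC6 window alone. These are letter matches in fixed windows, and nothing was measured here on binding.

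None of the 4 glypicans passed the test. GPC1, the glypican of many epithelial and carcinoma cells, had 7.43, 7.40 and 7.43 (log2) on treated arrays 1, 2 and 3, and 7.31, 7.37 and 7.46 on untreated arrays 1, 2 and 3. The treated values fell inside the untreated range, and the difference was 0.04 (95% interval -0.13 to 0.20, limma adjusted p = 0.79). Its second probe set, at a mean level of 5.03, differed by 0.09 with a 95% interval from -0.11 to 0.29.

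GPC6, a glypican with a part in skeletal growth, stood near the array median, at 4.54, 4.27 and 4.20 in treated and 4.20, 4.31 and 4.06 in untreated samples. Treated array 1 was the highest of the 6, the other treated arrays overlapped the untreated ones, and the difference was 0.15 (95% interval -0.11 to 0.40, adjusted p = 0.48). Its other probe set, at 3.08, differed by 0.15 as well.

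GPC3 and GPC4 lay below the array median. GPC3, an oncofetal glypican that restrains Hedgehog signalling, had 3.51, 3.56 and 3.68 in treated and 3.66, 3.54 and 3.52 in untreated samples, and these differed by 0.01 (95% interval -0.17 to 0.19, limma adjusted p = 0.96). GPC4, known for binding Wnt and BMP ligands, had 3.42, 3.32 and 3.77 in treated and 3.71, 3.85 and 3.75 in untreated samples. Treated arrays 1 and 2 of GPC4 lay below all untreated arrays and treated array 3 did not, and the difference was -0.26 (95% interval -0.54 to 0.01, limma adjusted p = 0.23). The dimmer GPC4 probe set, at 2.50, had the opposite sign, 0.13, and that of GPC3, at 2.71, differed by 0.20, neither of them passing.

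Versican and biglycan did not pass either, and both lay below the array median in the mean over the 6 arrays. VCAN had 3.19, 2.76 and 2.62 (log2) on treated arrays 1, 2 and 3, and 2.75, 3.28 and 3.36 on untreated arrays 1, 2 and 3. The arrays numbered 1 were ordered the other way from the arrays numbered 2 and 3, and the difference was -0.27 (95% interval -0.71 to 0.17, limma adjusted p = 0.45). Without both arrays numbered 1, which had the highest 3′ over 5′ signal, it was -0.63 and passed (adjusted p = 0.0342), the part of RNA quality in this being untested. With the 3′ over 5′ signal as a covariate on all 6 arrays it was -0.27 (adjusted p = 0.48). The 4 dimmer VCAN probe sets (2.97, 2.70, 2.23 and 2.12) had the opposite sign, with differences of 0.12, 0.03, 0.19 and 0.10 that did not pass.

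BGN had 3.72, 4.06 and 4.25 in treated and 4.13, 4.42 and 4.22 in untreated samples. Treated array 3 exceeded 2 of the untreated arrays, and the difference was -0.24 (95% interval -0.57 to 0.08, limma adjusted p = 0.35). A second BGN probe set of similar level, 4.06, differed by -0.27 with a 95% interval from -0.50 to -0.04, which did not pass among all probe sets (adjusted p = 0.20). The third, at 3.36, differed by 0.08.

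**Figure D2:**
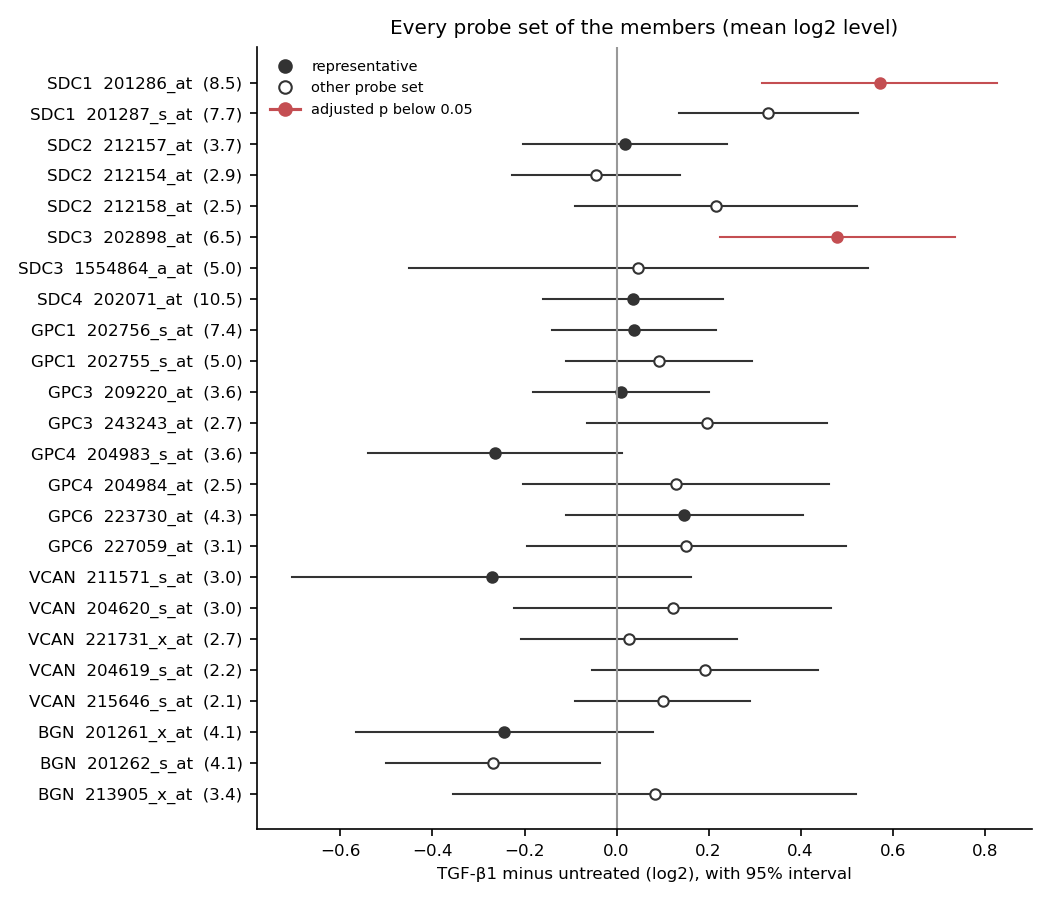
Difference between TGF-β1-treated and untreated cells (log2, horizontal axis) for every probe set of the 10 genes, with its 95% interval from the fit over 41091 probe sets and its mean log2 level in brackets. Filled points are the brightest probe set of a gene and red marks an adjusted p below 0.05. The brightest SDC1 and SDC3 probe sets are red, at 0.57 and 0.48, and the sign differs between probe sets of SDC2, GPC4, VCAN and BGN.

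Taken probe set by probe set, 2 of the 24 passed, the brightest of SDC1 (adjusted p = 0.0256) and the brightest of SDC3 (adjusted p = 0.0497), where 4.67% of all 41091 probe sets did. The 14 probe sets that do not represent their gene ranged from -0.27 to 0.33 and 0 of them passed (limma). Of the 24, 16 lay below the array median.

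**Figure D3:**
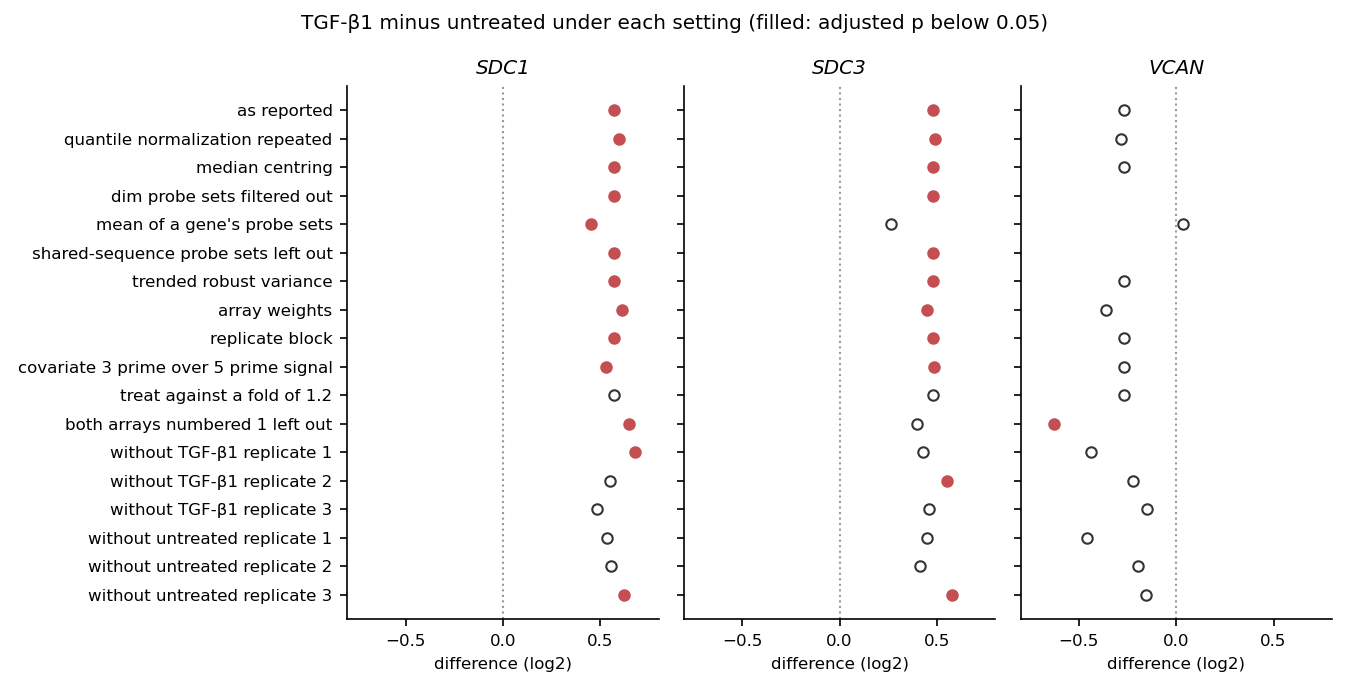
Difference (log2, horizontal axis) of SDC1, SDC3 and VCAN between TGF-β1-treated and untreated cells under each setting, with filled points at an adjusted p below 0.05. SDC1 stayed between 0.45 and 0.68 and SDC3 between 0.26 and 0.58, while VCAN ran from -0.63 to 0.03.

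The genes whose 6 values followed those of SDC1 most closely were TSC22D3, a glucocorticoid-inducible regulator, BIN1, a membrane-bending adaptor, and ASL, an enzyme of the urea cycle. After centring on its own mean, each lay within a root-mean-square distance of 0.0284, 0.0312 and 0.0449 (log2) of SDC1, the 3 smallest among 9886 genes above the median level. They differed by 0.61, 0.63 and 0.58 between treated and untreated cells, against 0.57 for SDC1. That nearness follows from the choice, since the distance was taken over the same 6 values, and it is no separate finding.

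Of 34 measured genes listed as other proteoglycan cores or related matrix proteins, 2 rose and 1 fell, where 8.5% of all genes passed. Their median difference was 0.09 (log2). SPOCK1, which encodes testican-1, had 5.53, 5.43 and 5.61 in treated and 4.99, 4.88 and 4.88 in untreated samples and rose 1.52-fold (limma adjusted p = 0.0031), also without any single array. It did not pass when tested against a change of 1.2-fold (limma treat, adjusted p = 0.0625). AGRN, which encodes the basement membrane heparan sulfate proteoglycan agrin, had 7.63, 7.59 and 7.62 in treated and 7.25, 7.03 and 7.30 in untreated samples and rose 1.34-fold (adjusted p = 0.0245). Without treated array 1, 2 or 3 or untreated array 1 or 2 its adjusted p reached up to 0.0724 and it did not pass. Probe sets named _s_at, _x_at or _a_at can match several transcripts, of the same or other genes, and are called shared-sequence here. With these left out, AGRN was read from a dimmer probe set, which differed by -0.08. ECM2, a matrix protein with leucine-rich repeats, was 1.35-fold lower (adjusted p = 0.0396), with an adjusted p of 0.0862 to 0.137 without any of the arrays other than treated array 1 and of 0.164 with its probe sets averaged.

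Enzymes that build the sugar chains changed in both directions. Of 29 genes of the linkage region and of heparan sulfate, 5 rose and 1 fell, with a median of 0.07. XYLT1, which adds the first sugar to the core protein, had 6.59, 7.04 and 6.84 in treated and 3.94, 3.77 and 4.13 in untreated samples and rose by 2.88 on the log2 scale, or 7.35-fold (limma adjusted p = 1.9e-05), its untreated level lying below the array median. That probe set is of the shared-sequence kind. The other, dimmer XYLT1 probe set, used when such sets were left out, differed by 1.14 (log2, limma adjusted p = 0.0213). With the XYLT1 probe sets averaged, the difference was 2.01. NDST1, which starts sulfation of heparan sulfate, rose 1.88-fold, SULF2, which removes sulfate at the cell surface, rose 1.58-fold, and HS3ST1, a late sulfotransferase, was 3.60-fold lower. With the probe sets of each gene averaged, the log2 difference of HS3ST1 was -0.84, against -1.85 from its brightest probe set, and that of NDST1 was 0.58, against 0.91, both still passing. HS3ST1 was not tested without shared-sequence probe sets, since all its probe sets are of that kind. Of 16 chondroitin and dermatan sulfate enzymes, 4 rose and 1 fell, with a median of 0.10. CHST11 and CHST3, both chondroitin sulfotransferases, rose 1.77-fold and 1.34-fold, CSGALNACT2, which starts chondroitin chains, rose 1.29-fold and the sulfotransferase CHST7 was 1.37-fold lower. CHST3 missed the threshold without untreated array 2 (adjusted p = 0.0519), CHST7 without treated array 2 or untreated array 2 or 3 (up to 0.0701), and CSGALNACT2 without any array other than treated array 1 (up to 0.0841). Without shared-sequence probe sets CSGALNACT2 was read from a dimmer probe set, which differed by -0.01, and the chondroitin list then had 3 calls. Averaged over its probe sets, CHST11 differed by 0.55 (log2), against 0.83 from the brightest, and passed.

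Genes for shedding and cleavage changed in both directions, with 6 of 19 higher, 2 lower and a median of 0.16. MMP2, a gelatinase, rose 3.14-fold and ADAMTS15, a versican-cleaving protease, rose 2.17-fold, while MMP7, a sheddase of syndecan-1 in mouse, was 4.01-fold lower and HPSE, the heparanase that cuts heparan sulfate, 1.54-fold lower. With probe sets averaged, MMP2 differed by 0.56 (log2), against 1.65 from its brightest probe set, and ADAMTS15 by 0.58, against 1.12, both still passing. ADAMTS15 lay below the array median in the mean over the 6 arrays, at 4.62 in treated and 3.50 in untreated samples. Without shared-sequence probe sets HPSE was read from a dimmer one, which differed by -0.38 (log2) and did not pass (limma adjusted p = 0.0703). Of 11 cytoplasmic partners of syndecans, 1 rose and 0 fell, with a median of -0.04. It was ACTN1, the α-actinin that links syndecan-4 to actin, at 1.43-fold. Of 12 genes of hyaluronan synthesis, breakdown and link proteins, 2 rose and 1 fell, with a median of 0.06. CEMIP and CEMIP2, both tied to hyaluronan breakdown, rose 1.65-fold and 1.30-fold, and the synthase HAS3 was 1.72-fold lower. CEMIP2 kept its call without treated array 1 and not without any of the other arrays (adjusted p up to 0.0714), and HAS3, with an adjusted p of 0.0488, did not pass without treated array 1 or 2 or untreated array 1 or 3 (up to 0.153). CEMIP, averaged over its probe sets, differed by 0.45 (log2), against 0.72 from the brightest, and passed. Like HS3ST1, CEMIP could not be tested without shared-sequence probe sets. HAS3 did not pass under most of the alternatives tried, with an adjusted p of 0.0501 under median centring and of 0.263 without both arrays numbered 1.

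Among secreted ligands that bind heparan sulfate, 9 of 24 rose and 2 fell, with a median of 0.25. FN1, which encodes the matrix protein fibronectin, rose 3.36-fold and WNT5A, a Wnt ligand, 1.79-fold. The chemokine gene CXCL8 was 3.90-fold lower and FGFBP1, a carrier of fibroblast growth factors, 2.78-fold lower. These 4 calls held without any single array. CXCL8 could not be tested without shared-sequence probe sets, since all its probe sets are of that kind. All 7 lists are described by counts and medians, set beside the 8.5% of all genes that passed and the median of -0.0027 over all genes, and no difference between lists was tested. That 8.5% includes dim genes: with dim probe sets filtered out, 2296 of 13097 genes and 43 of 96 list genes passed.

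**Figure D4:**
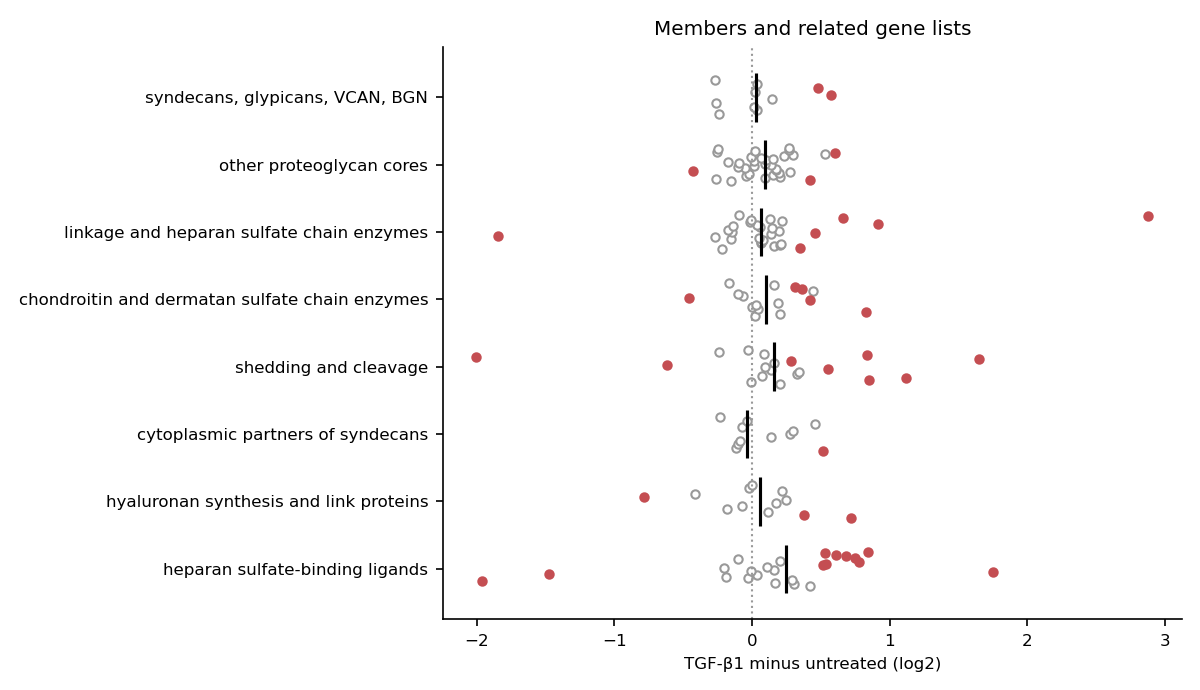
Difference between TGF-β1-treated and untreated cells (log2, horizontal axis) for each measured gene of the 10 proteoglycan cores (top row) and of 7 related lists. Red points passed an adjusted p below 0.05, open points did not, and black bars are medians. The top row has 2 red points, at 0.57 and 0.48, and the heparan sulfate enzymes span -1.85 to 2.88.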

How the data were processed

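Gene expression in CaSki cells was measured on 6 Affymetrix arrays of 54675 probe sets each, 3 with and 3 without TGF-β1, as the titles give them. The authors deposited 1 log2 value per probe set and array, made with Affymetrix Expression Console and RMA per the submitters' processing notes, whose versions and settings the sources used here do not give. That the scale is log2 was inferred from the range of the values.

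Probe sets were named from the platform annotation: 41091 had 1 symbol, 1801 several, 11721 none, and 62 were controls. RefSeq gene numbers (GRCh38.p14) changed 0 symbols. Each gene took the values of its brightest probe set, by the mean of all 6 arrays, without a filter. The comparison used limma 3.58.1 (lmFit, eBayes, no covariate) under R 4.3.3 over 19775 genes, with Benjamini-Hochberg adjustment, and likewise over the 41091 probe sets. Differences are treated minus untreated. A call is an adjusted p below 0.05. On simulated data the fit recovered 55% of changes of 1.5-fold and 87% of 2-fold, with 4.05% of its calls false. Changes of the size of SDC1 or SDC3 can therefore be missed. The simulation changed far fewer genes than were called here, all upward and with arrays varying independently, so its rates may not hold for the data. The precision is limited by 3 arrays a group.

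The 10 genes, the lists and the naming rule (all 10 genes, and up to 4 called genes per list with the smallest p) were chosen with earlier results of these data known. Alternatives covered normalisation, dim or shared-sequence probe sets, averaging over probe sets, variance model, array weights, replicate number as a block, a 3′ over 5′ covariate, limma's treat against 1.2-fold, and leaving out arrays, with the probe set kept. Shared-sequence probe sets were picked by the endings _s_at, _x_at and _a_at of their names alone, and whether they read other genes was not tested. SDC2 has no printed sequence here. Computations outside R used Python 3.11.15 with scipy 1.17.1.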

Additional observations from a re-analysis of the deposited data

How the results depend on the processing

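SDC1 kept its call under repeated quantile normalisation, median centring, a filter on dim probe sets, averaging of probe sets, exclusion of shared-sequence probe sets, a trended robust variance, array weights, the replicate block, the 3′ over 5′ covariate and removal of both arrays numbered 1. It lost it under treat against 1.2-fold (0.5715, adjusted p = 0.34), which asks for a larger change. Single arrays left out gave 0.4855 to 0.68. SDC3 lost its call under averaging (0.2634), which adds a dimmer probe set, under treat (0.4793) and without both arrays numbered 1 (0.397), and gave 0.4123 to 0.5772 without single arrays. The members called were 1 under averaging, 0 under treat and 0 to 2 without single arrays.

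The sign turned for some genes, among them AGRN and CSGALNACT2, which were called as higher. Without both arrays numbered 1, SDC2 was -0.0135, GPC1 -0.0036, and VCAN, called there alone, -0.6271. Averaging, which adds the dimmer VCAN probe sets, gave VCAN 0.034. Leaving out shared-sequence probe sets, which puts a dimmer probe set in place of the brightest, gave GPC4 0.1297, AGRN -0.0787 and CSGALNACT2 -0.0147. Without single arrays SDC2 ran from -0.0306 to 0.0996, SDC4 from -0.0112 to 0.0778 and GPC3 from -0.0369 to 0.0523. For the turns without arrays, and for the VCAN call, the cause was not tested. Of the list genes named, AGRN, CHST3, CSGALNACT2, CEMIP2 and HAS3 were not called without both arrays numbered 1, and AGRN, ECM2, CSGALNACT2 and HAS3 were not under averaging. Under treat, SPOCK1, AGRN, ECM2, CHST3, CHST7, CSGALNACT2, ACTN1, CEMIP2 and HAS3 lost their calls. The filter on dim probe sets left 5 of the 10 genes and the exclusion of shared-sequence probe sets 7.

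Of all genes 1680 were called: 1004 without shared-sequence probe sets (16788 genes tested), 2629 with a trended robust variance, 327 under treat, 627 without both arrays numbered 1, and 768 to 1326 without single arrays, where fewer samples enter. Of list genes 37 were called, 22 without shared-sequence probe sets, 16 under treat and 24 to 33 without single arrays. With dim probe sets filtered out, 2296 of 13097 genes and 43 of 96 list genes were called. The array numbers were not taken as pairs in the main fit, because the titles do not say that they mark a shared batch. Deviations of same-numbered arrays correlated at 0.20, 0.056 and 0.091, and 5 of 6 arrays were closest to their own number. Whether the numbers mark a shared batch was not settled by these values. With the replicate block, 2 members and 1280 genes were called, and ECM2 (adjusted p = 0.0686) and HAS3 (0.0520) were not. ECM2 (0.0515) and HAS3 (0.0762) were also not called with the 3′ over 5′ covariate, nor HAS3 under repeated quantile normalisation (0.0529), median centring (0.0501), array weights (0.0531) or exclusion of shared-sequence probe sets (0.0538).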
